A study of Arabidopsis thaliana with 9 samples.

Results

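The plant cell wall genes examined here are the enzymes and structural proteins that build the wall or loosen it so that a cell can expand. They were chosen by gene symbol: every protein-coding gene on chromosomes 1 to 5 whose symbol is CESA, CSLA to CSLG, EXPA, EXPB, EXLA, EXLB, XTH, EXT, LRX, BXL, PME, IRX or GAUT followed by a number. This gave 145 of 27444 genes. The rule uses symbols and no binding value, but it was set with earlier results of these data known. The symbols were taken as the gene table gives them, and 1 of the genes called PME1 (AT4G12390) is listed there as an inhibitor of pectin methylesterase and not the enzyme.

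The series is a chromatin immunoprecipitation sequencing (ChIP-seq) study of whole Arabidopsis thaliana plants of strain Ws, collected at 2 weeks of age after growth on MS medium. The 3 lines, with 3 samples each, carried 35S:GRF3-GFP, 35S:GRF1-GFP or 35S:GFP, that is, a growth-regulating factor fused to green fluorescent protein or the fluorescent protein alone, all under the 35S promoter, which is strong and active in most tissues. All samples were precipitated with an antibody against GFP. Peak lists were analysed for the 3 GRF3-GFP and the 3 GRF1-GFP samples, 1 list per library, and the 3 samples with GFP alone were not analysed here. Because the tagged proteins are overexpressed, the lists describe where they can be recovered in such plants, in all tissues at once.

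Transcription factors of the growth-regulating factor family act with GIF coactivators and promote leaf and organ growth by sustaining cell proliferation. The primary wall of a growing cell consists of cellulose microfibrils made at the plasma membrane by CESA complexes, cross-linked by xyloglucan and other hemicelluloses and embedded in pectin, both made in the Golgi. Expansins and XTH enzymes act on the cellulose and xyloglucan network when a cell expands, pectin methylesterases change the stiffness of pectin, extensins form a protein network, and xylem cells later lay down a secondary wall rich in cellulose, xylan and lignin. The question put to the peak lists is which of these genes carry GRF3-GFP or GRF1-GFP peaks.

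A gene was counted as carrying a peak when the peak's summit, its highest point, lay inside the gene span or within 1 kb of it. By this count 41 of the 145 cell wall genes (28.3%) had a summit in at least 1 of the 6 libraries, beside 22.0% of all protein-coding genes. The GRF3-GFP libraries had summits at 17, 14 and 34 of the cell wall genes, or 11.7%, 9.66% and 23.4%, beside 7.38%, 5.67% and 14.5% of all genes. The GRF1-GFP libraries had summits at 9, 11 and 8, or 6.21%, 7.59% and 5.52%, beside 3.13%, 4.61% and 4.03% of all genes. The share of cell wall genes was thus above that of all genes in each of the 6 libraries, by a ratio of 1.64 ± 0.06 for GRF3-GFP and 1.67 ± 0.31 for GRF1-GFP (SD, n = 3 each). These ratios of gene shares differed between the factors by less than the spread between libraries (difference -0.03, exact permutation test over libraries, two-sided, p = 0.8).

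**Figure D1:**
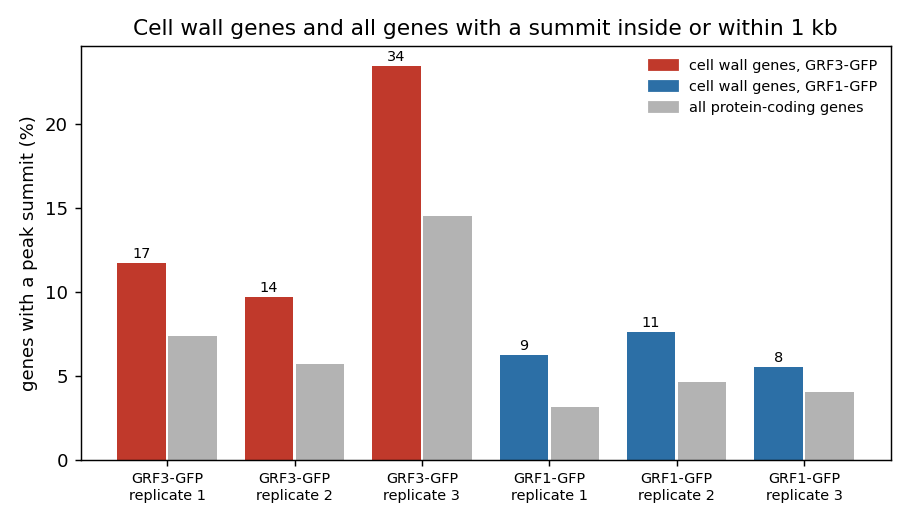
Percent of the 145 cell wall genes (coloured bars, with the number of genes above) and of all 27444 protein-coding genes (grey bars) with a peak summit inside the span or within 1 kb, for each library. The coloured bar is the taller one in all 6 libraries, and GRF3-GFP replicate 3 stands above the rest with 34 genes.

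Cell wall genes with a summit were more numerous in GRF3-GFP libraries (14.9% ± 7.4) than in GRF1-GFP libraries (6.44% ± 1.05, SD, n = 3 each), without overlap. The difference was 8.51 percentage points (two-sided p = 0.1 by exact permutation over libraries; no smaller value is possible with 3 against 3). The number of peaks per list moved with it: the GRF3-GFP lists held 2258, 2301 and 5944 peaks and the GRF1-GFP lists 1410, 1122 and 1878. With all lists reduced to their 1122 strongest peaks the difference was -0.23 points (exact permutation p = 1), so it all but vanished once list length was made equal. Sequencing depth is unknown, as the lists give no read counts.

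Gene length moved with the cell wall set as a whole to a small extent, the median span being 2201 bp for the cell wall genes and 2078 bp for all genes. The families differed more. Medians were 4263 bp for CESA and IRX, 3794 bp for CSL, 3754 bp for BXL and 3346 bp for GAUT. They were 1644 bp for expansins and 1645 bp for XTH genes. The part of span length in the family counts given below was not tested. Per base, the spans with 1 kb on either side held 30.0, 21.0 and 56.9 summits per Mb at cell wall genes in the GRF3-GFP libraries, beside 17.7, 13.5 and 37.6 at all genes. In the GRF1-GFP libraries they held 18.0, 22.5 and 18.0 per Mb, beside 7.31, 10.5 and 9.61 at all genes. The cell wall genes were thus above all genes per base as well, in each library. The ratio per base was 1.59 ± 0.10 for GRF3-GFP and 2.16 ± 0.29 for GRF1-GFP (SD, n = 3 each), and the libraries of the factors did not overlap. The difference was -0.57 (exact permutation over libraries, two-sided, p = 0.1, at the limit of the design). With lists of equal length it was -0.48 (exact permutation p = 0.5), and the ratios then overlapped, at 1.09, 1.56 and 2.27 in the GRF3-GFP libraries and 2.69, 2.15 and 1.53 in the GRF1-GFP libraries. With full lists but without the 9 EXT and LRX genes, left out after their values were seen, the GRF3-GFP ratios were lower, at 1.26, 1.06 and 1.18. Those of GRF1-GFP were then 1.95, 1.97 and 1.49.

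Peaks found in at least 2 of the 3 libraries of a factor, overlapping by at least 1 bp, were joined to consensus regions. GRF3-GFP regions lay at 17 of the 145 cell wall genes (11.7%, beside 5.52% of all genes) and GRF1-GFP regions at 8 (5.52%, beside 3.11% of all genes). Regions found in all 3 libraries lay at 7 cell wall genes for GRF3-GFP (4.83%, beside 3.02%) and at 6 for GRF1-GFP (4.14%, beside 2.29%). The GRF3-GFP count of 17 depended on single libraries: it was 7 without replicate 3, 10 without replicate 1 and 14 without replicate 2. The 7 left without replicate 3 were the 7 found in all 3 libraries. The folds quoted below are the authors' own fold enrichment over a control that the sources used here do not describe. They are best read inside each list, since the lists differ in scale. The median fold over all peaks was 2.41, 2.44 and 2.56 in GRF3-GFP replicates 1, 2 and 3, and 2.43, 4.52 and 2.60 in those of GRF1-GFP. Means and SDs of folds over libraries carry this difference in scale, and they cover only the libraries with a peak.

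Regions were counted by family, to be set beside 5.52% of all genes for GRF3-GFP and 3.11% for GRF1-GFP. Wall proteins of the EXT and LRX families had regions of GRF3-GFP at 6 of 9 members (66.7%) and of GRF1-GFP at 3 of 9 (33.3%). In the same order, the pectin-synthesis family GAUT had regions at 2 and 3 of 13 (15.4% and 23.1%). The cellulose synthase-like family CSL had them at 4 and 1 of 30 (13.3% and 3.33%). The CESA and IRX genes had them at 2 and 1 of 17 (11.8% and 5.88%). The xylosidases BXL had them at 2 and 0 of 3 (66.7% and 0%), and the pectin methylesterases PME at 1 and 0 of 10 (10% and 0%). The families named for loosening the wall, 33 expansins and 30 XTH genes, had no region of either factor. At the shares of all genes, few regions would be expected there. Families of 3 to 33 genes give shares that a single gene moves by several points.

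**Figure D2:**
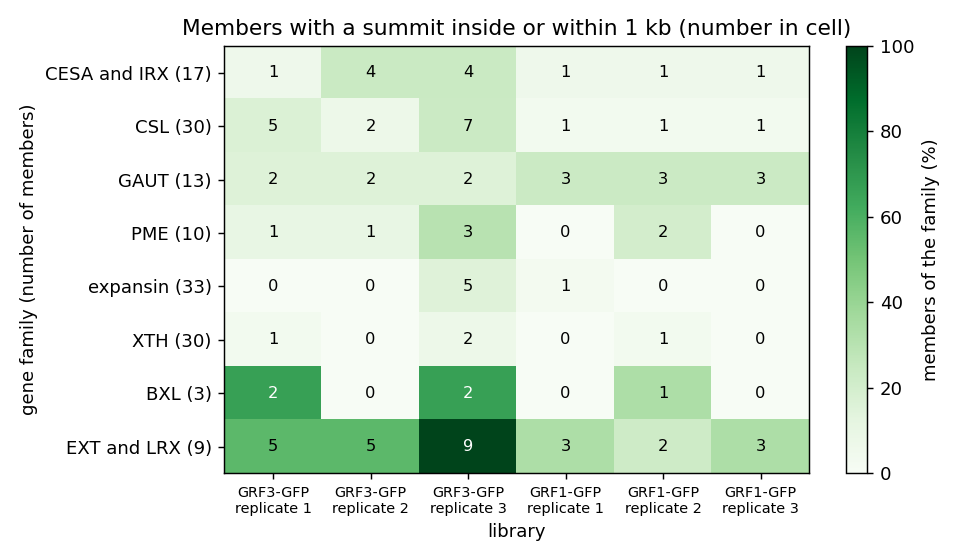
Number of members of each family with a summit inside the span or within 1 kb (digit in each cell) and the percent of the family (colour), by library. EXT and LRX reach 9 of 9 in GRF3-GFP replicate 3, GAUT holds the same number in each library of a factor, and expansins and XTH genes are at or near 0 outside GRF3-GFP replicate 3.

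The catalytic cellulose synthase genes had no consensus region, and the regions in this group lay at IRX6 and IRX14-L. CESA proteins are the catalytic subunits of cellulose synthase, and CESA4, IRX3 (CESA7) and IRX1 (CESA8) form the complex of the secondary wall. Among the 17 CESA and IRX genes, 6 (35.3%) had a summit in at least 1 library, beside the 22.0% of all genes. Their spans are long, with a median of 4263 bp against 2078 bp for all genes. CESA1 and CESA6, subunits of the primary wall complex, were among the 11 without one. CEV1 (AT5G05170), which has its CESA3 name only as a synonym, was not among the 17. It had a summit in 1 library and no region of either factor. CESA4 (fold 2.15) and IRX3 (fold 2.11) each had a summit in GRF3-GFP replicate 3 only. IRX12, a laccase gene (LAC4) of lignin formation, had one in GRF3-GFP replicate 2 only (fold 2.07), as did the xylan gene IRX15-L (fold 2.04).

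IRX6 (AT5G15630), which encodes the COBRA-like protein COBL4 needed for secondary wall cellulose, carried peaks on both sides of its span. On its right side, at chromosome 5, 5086896 to 5087332, the GRF3-GFP region had folds of 6.22, 7.59 and 8.32 in replicates 1, 2 and 3 (7.38 ± 1.06, SD, n = 3). The GRF1-GFP region there, 5086897 to 5087328, had folds of 2.95, 6.97 and 3.45 (4.46 ± 2.19, SD, n = 3). Both summits lay just outside the gene, at 256 bp for GRF3-GFP and 268 bp for GRF1-GFP, and were nearer to the neighbouring gene AT5G15640, at 152 and 140 bp. On the left side, 119 bp outside the span at 5084240 to 5084644, only GRF1-GFP had a region, with folds of 2.50, 7.34 and 4.63 (4.82 ± 2.43, SD, n = 3). No GRF3-GFP library had a peak overlapping it. Left and right mean lower and higher coordinates, since the gene table used gives no strand.

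IRX14-L (AT5G67230), 1 of the glycosyltransferase genes for the xylan backbone, had a weak GRF3-GFP region inside its span, at chromosome 5, 26822626 to 26822968. Its folds were 1.85 in replicate 2 and 2.00 in replicate 3, with no peak in replicate 1.

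The cellulose synthase-like genes make the backbones of hemicelluloses and related glucans, and their regions fell in the CSLA and CSLD groups. None of the 5 CSLC genes, which include the xyloglucan backbone synthases, had a summit in any library, and neither did the 6 CSLB genes, as was the case for 78.0% of all genes. CSLD4 (AT4G38190), needed for pollen tube growth, had the highest mean GRF3-GFP fold of all cell wall genes. At chromosome 4, 17909699 to 17910425, folds were 8.47, 8.85 and 9.85 in replicates 1, 2 and 3 (9.06 ± 0.71, SD, n = 3), and the 3 values lay close together. The summit was inside the span, at 3.64% of its length from the left end, and 233 bp from FRS5, a light signalling gene for which the same region counts. No GRF1-GFP library had a peak there.

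CSLA07 (AT2G35650), a glucomannan synthase gene, had regions of both factors at its left end. The GRF3-GFP region, chromosome 2, 14985030 to 14985419, had folds of 5.25, 5.99 and 8.22 (6.49 ± 1.55, SD, n = 3) with the summit 276 bp outside the span. The GRF1-GFP region, 14985062 to 14985733, overlapped it but reached into the gene, with folds of 2.42, 4.63 and 2.65 (3.23 ± 1.21, SD, n = 3). Its summit was inside the span in replicates 1 and 3, and 286 bp outside in replicate 2, close to the GRF3-GFP summits. At the right end of the gene a further region, 14987965 to 14988365, was seen with GRF1-GFP only, with folds of 3.03, 5.09 and 4.77 (4.29 ± 1.10, SD, n = 3), and no GRF3-GFP library had a peak overlapping it.

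Of the other CSLD genes, CSLD5 had no peak in any library, and the rest had low GRF3-GFP folds and no GRF1-GFP peak. CSLD3 (AT3G03050, KOJAK) and CSLD2 (AT5G16910), both needed for root hair growth, had regions inside their spans in replicates 1 and 3. Folds were 2.18 and 2.86 at CSLD3 (chromosome 3, 688211 to 688696) and 2.17 and 2.03 at CSLD2 (chromosome 5, 5562064 to 5562485). Both genes had further summits in single libraries: CSLD3 inside its span in replicate 1 (fold 2.32) and 390 bp outside in replicate 3 (fold 2.92), and CSLD2 inside its span in replicate 3 (fold 2.46). The summit outside CSLD3 lay inside the neighbouring gene AT3G03060. CSLD1, CSLD6 and CSLG2 had GRF3-GFP summits without a consensus region, with folds between 1.83 and 2.90. The summit of fold 2.90 lay 900 bp outside CSLD1 and inside the gene AT2G33090.

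Among pectin synthesis genes the same number of GAUT genes had a summit in each library of a factor, 2 for GRF3-GFP and 3 for GRF1-GFP. GAUT genes encode galacturonosyltransferases, and GAUT7 (AT2G38650) anchors GAUT1, the enzyme that makes the homogalacturonan backbone, in the Golgi. Summits of both factors lay at the right end of GAUT7, inside the span at about 98.0% of its length for GRF3-GFP and 98.3% for GRF1-GFP. The GRF3-GFP region, chromosome 2, 16165505 to 16166026, had folds of 12.5, 5.22 and 7.63 in replicates 1, 2 and 3 (8.47 ± 3.74, SD, n = 3). The GRF1-GFP region, 16165768 to 16166043, had folds of 21.1, 20.8 and 29.9 (24.0 ± 5.2, SD, n = 3), at the 96.5th, 95.9th and 97.1st percentile of folds in their own lists. In each GRF1-GFP list this was the highest fold at a cell wall gene. Its edges were nearly the same in the 3 GRF1-GFP libraries: the starts and the ends each varied by 2 bp. The GRF3-GFP peaks of replicates 1 and 3 had nearly the same start, at 16165771 and 16165772, and ended at 16166026 and 16166022. Only the peak of GRF3-GFP replicate 2 started elsewhere, at 16165505. The neighbouring gene AT2G38660 began or ended 134 bp from the GRF3-GFP summit and 121 bp from the GRF1-GFP summit.

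At GAUT10 (AT2G20810) both factors had a region at the same place inside the gene, close to 59% of its length. The GRF3-GFP region, chromosome 2, 8958771 to 8959467, had folds of 6.90, 6.48 and 8.21 (7.20 ± 0.90, SD, n = 3). The GRF1-GFP region, 8958780 to 8959203, had folds of 2.69, 5.31 and 3.96 (3.99 ± 1.31, SD, n = 3). All 6 summits lay between positions 8958947 and 8958976. A further GRF1-GFP region, 287 bp outside the left end at 8957333 to 8957731, had folds of 3.29, 6.38 and 4.44 (4.70 ± 1.56, SD, n = 3), and no GRF3-GFP library had a peak overlapping it.

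GAUT11 (AT1G18580), known for seed coat mucilage pectin, was the single cell wall gene with a GRF1-GFP region and no GRF3-GFP region. On the left, 207 bp outside the span at chromosome 1, 6395402 to 6396096, folds were 3.29, 5.71 and 4.19 (4.40 ± 1.23, SD, n = 3). On the right, at 6398118 to 6398483, folds were 5.53 in replicate 2 and 3.70 in replicate 3. No GRF3-GFP library had a peak overlapping either. The other 10 GAUT genes, GAUT1 and GAUT4 among them, had no summit in any library, so that 23.1% of the family had one, close to the 22.0% of all genes.

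**Figure D3:**
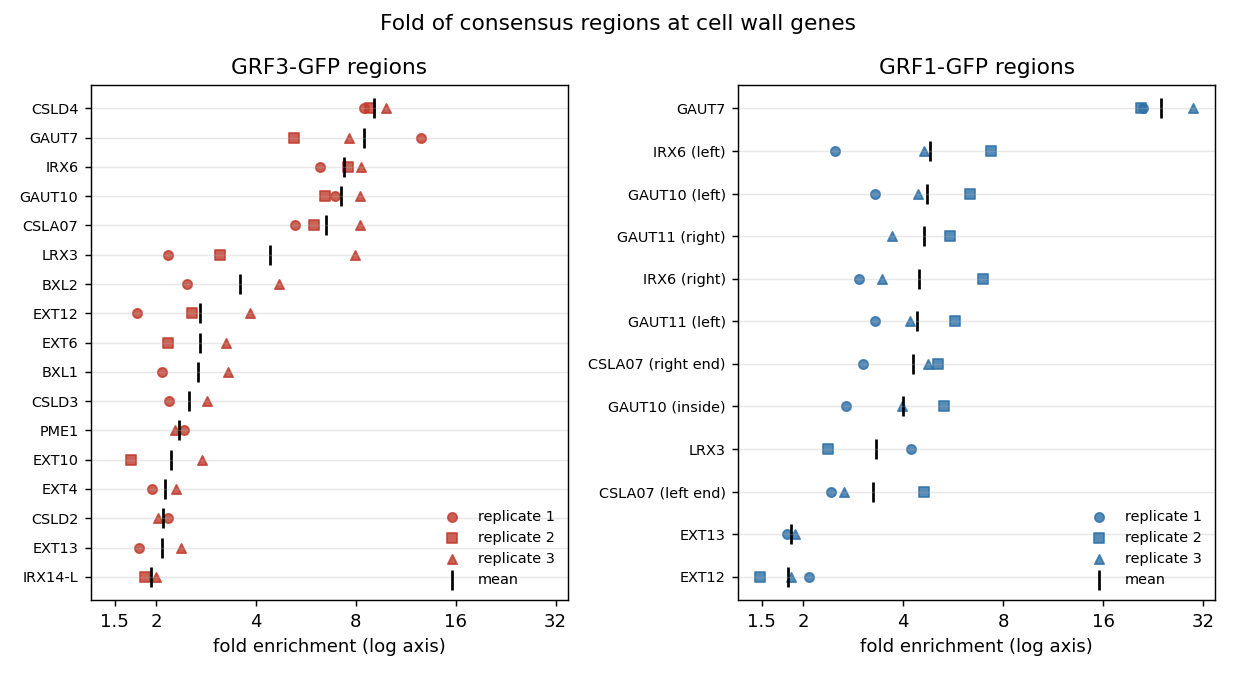
Fold enrichment (log axis) of each consensus region at a cell wall gene, by replicate, with the mean as a vertical tick; the panel with GRF3-GFP regions is on the left and the one with GRF1-GFP regions on the right, and left, right and inside give the place of the summit where a gene has several regions. GRF3-GFP folds separate into 5 genes with means of 6.49 to 9.06 and the rest at 4.42 or below, and GAUT7 stands alone among the GRF1-GFP regions.

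Of the enzymes that trim pectin and hemicellulose, BXL1 (AT5G49360), a xylosidase and arabinofuranosidase gene, had a GRF3-GFP region inside its span at chromosome 5, 20012944 to 20013427, with folds of 2.08 in replicate 1 and 3.29 in replicate 3. BXL2 (AT1G02640), its relative, had one at chromosome 1, 565404 to 565694, with folds of 2.48 in replicate 1 and 4.70 in replicate 3. GRF1-GFP replicate 2 also had a peak at that place in BXL2 (fold 3.26), the only GRF1-GFP library that did. PME1 (AT1G53840), a pectin methylesterase gene, had folds of 2.42 in replicate 1 and 2.28 in replicate 3 at chromosome 1, 20102947 to 20103334. None of the 3 genes had a peak in GRF3-GFP replicate 2. Among the other pectin methylesterases, PME3, PME44, PME5 and PME61 had summits in single libraries of a factor with folds of 1.79 to 2.33, and 5 of the 10 genes had none, beside 78.0% of all genes. The PME44 summit lay 338 bp outside its span and inside the gene AT4G33230.

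The wall proteins stood out by number and not by fold. Extensins are hydroxyproline-rich glycoproteins with a repeated coding sequence that become cross-linked in the wall, and LRX proteins join a leucine-rich repeat domain to an extensin domain. All 9 genes (EXT3, EXT4, EXT6, EXT10, EXT12, EXT13, LRX1, LRX2 and LRX3) had a summit in at least 1 GRF3-GFP library, and 4 had one in a GRF1-GFP library. Of all genes, 22.0% had a summit in at least 1 of the 6 libraries. The numbers were 5, 5 and 9 of 9 in the GRF3-GFP libraries, beside the 7.38%, 5.67% and 14.5% of all genes given above. They were 3, 2 and 3 of 9 in the GRF1-GFP libraries, beside 3.13%, 4.61% and 4.03% of all genes. All 29 summits lay inside the gene spans, whereas 75.9% of the 112 pairs of a summit and a cell wall gene did (1 summit counts for both EXPB2 and EXPB6). Their median fold was 2.08, against 2.66 over all cell wall genes, and 2 of the 29 reached a fold of 4. Reads from repeated sequence can map to several copies, and the sources used here do not say how such reads were treated, so the assignment to single extensin genes is uncertain.

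The highest of these folds were at LRX3 (AT4G13340), a vegetative LRX gene. Its GRF3-GFP region, chromosome 4, 7759756 to 7760949, had folds of 2.18, 3.12 and 7.96 in replicates 1, 2 and 3 (4.42 ± 3.10, SD, n = 3), a spread set by replicate 3. Its GRF1-GFP region, 7759763 to 7760960, had folds of 4.23 in replicate 1 and 2.38 in replicate 2 and no peak in replicate 3. These regions were over 1 kb wide, at 1194 and 1198 bp.

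EXT12 (AT4G13390) was the extensin with a peak in every library. GRF3-GFP folds were 1.75, 2.56 and 3.83 at chromosome 4, 7784293 to 7784732 (2.72 ± 1.05, SD, n = 3), and GRF1-GFP folds were 2.08, 1.48 and 1.84 at 7784294 to 7784637 (1.80 ± 0.30, SD, n = 3). EXT13 (AT5G35190) had overlapping regions of both factors as well: folds were 1.78 in replicate 1 and 2.38 in replicate 3 of GRF3-GFP (chromosome 5, 13434484 to 13434873), and 1.79 in replicate 1 and 1.89 in replicate 3 of GRF1-GFP (13434505 to 13434856).

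Except for EXT3, the remaining extensins carried GRF3-GFP regions of low fold in 2 libraries each. Folds were 1.95 in replicate 1 and 2.30 in replicate 3 at EXT4 (AT1G76930), 2.18 in replicate 2 and 3.25 in replicate 3 at EXT6 (AT2G24980), and 1.68 in replicate 2 and 2.74 in replicate 3 at EXT10 (AT5G06640). The joined peaks overlapped, but their summits did not coincide. In the same order of replicates, they lay at 28896662 and 28896239 in EXT4 and at 10623903 and 10623433 in EXT6. They lay closer together in EXT10, at 2040624 and 2040726. GRF1-GFP replicate 3 had a peak of fold 1.70 at EXT6. EXT3 (RSH), needed for cell plate formation in the embryo, had a summit in GRF3-GFP replicate 3 alone (fold 2.67), in a stretch that also belongs to AT1G21313. LRX1 and LRX2, which act in root hairs, had GRF3-GFP summits in 2 libraries each but at different places, with folds of 1.59 to 2.27.

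Without the 9 EXT and LRX genes, a split chosen after their values were seen, the other 136 cell wall genes had GRF3-GFP regions at 11 (8.09%, beside 5.52% of all genes) and GRF1-GFP regions at 5 (3.68%, beside 3.11%). Summits were then at 8.82%, 6.62% and 18.4% of them in the GRF3-GFP libraries and at 4.41%, 6.62% and 3.68% in the GRF1-GFP libraries. In GRF1-GFP replicate 3 that share was below the 4.03% of all genes, and in the other 5 libraries it remained above the share of all genes.

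Expansins, which let the wall yield without cutting it, and XTH enzymes, which cut and rejoin xyloglucan, had summits in scattered libraries only. GRF3-GFP replicates 1, 2 and 3 had summits at 0, 0 and 5 of the 33 expansins and at 1, 0 and 2 of the 30 XTH genes. GRF1-GFP replicates 1, 2 and 3 had them at 1, 0 and 0 expansins and at 0, 1 and 0 XTH genes. Together these 63 genes were at 1.59%, 0% and 11.1% in the GRF3-GFP libraries and 1.59%, 1.59% and 0% in the GRF1-GFP libraries, below the share of all genes in each of the 6. Their spans are short, with medians of 1644 bp for expansins and 1645 bp for XTH genes, against 2078 bp for all genes, and the part of this in the low counts was not tested.

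The single expansin summits of GRF3-GFP replicate 3 lay at EXPA24 (fold 3.56), EXPA14 (2.31), EXPA20 (2.18 and 2.00, at 2 places) and EXPB2 (3.22). The last of these peaks also counted for the neighbouring EXPB6, 637 bp away. The EXPA20 summit of fold 2.18 lay 446 bp outside its span and inside the gene AT4G38200. EXPB3 had a summit 615 bp outside its span in GRF1-GFP replicate 1 (2.38). XTH30 had summits in GRF3-GFP replicate 1 (2.55) and GRF1-GFP replicate 2 (2.52), and XTH4 (2.31) and XTH7 (2.76) in GRF3-GFP replicate 3. Of the growth expansins, EXPA1, EXPA5 and EXPA10 had none in any list. Of the genes with a summit but no consensus region, several low ones are named here after their values were seen.

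Most cell wall genes with a GRF1-GFP region also had a GRF3-GFP region. Of the 8 cell wall genes with a GRF1-GFP region, 7 (87.5%) also had a GRF3-GFP region, namely CSLA07, EXT12, EXT13, GAUT7, GAUT10, IRX6 and LRX3. These were 41.2% of the 17 with a GRF3-GFP region. Over all genes the 249 shared ones (0.907% of genes) were 29.2% of those with a GRF1-GFP region and 16.4% of those with a GRF3-GFP region. At each of the 7 genes the regions of both factors overlapped. How often they overlapped at the 249 shared genes was not counted. The assignment of reads to the extensins EXT12 and EXT13 is uncertain, as said above. With 8 genes in the smaller list, 1 gene moves its share by over 10 points.

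Summits in all 6 libraries were present at 5 cell wall genes (3.45%, beside 0.521% of all genes), CSLA07, EXT12, GAUT7, GAUT10 and IRX6. LRX3 had summits in 5 libraries and EXT13 in 4. A further 4 genes were seen in 3 libraries (2.76%, beside 4.001% of all genes), 12 in 2 (8.28%, beside 3.47%) and 18 in 1 (12.4%, beside 13.0%). Of the 23 genes with a summit but no region, 13 were seen in GRF3-GFP replicate 3 and nowhere else. That list was the longest, with 5944 peaks and summits at 14.5% of all genes. The share of all genes seen only there was not counted.

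Summits were also placed relative to the gene spans. Of the 17 GRF3-GFP regions at cell wall genes 15 had their summit inside the gene and 2 outside, and of the 12 GRF1-GFP regions 7 were inside and 5 outside. Over all genes 64.0% of the GRF3-GFP regions and 47.8% of the GRF1-GFP regions within 1 kb of a gene lay inside one. The outside summits were all within 287 bp of the span. The factors were not tested against each other here, since regions are not replicates.

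**Figure D4:**
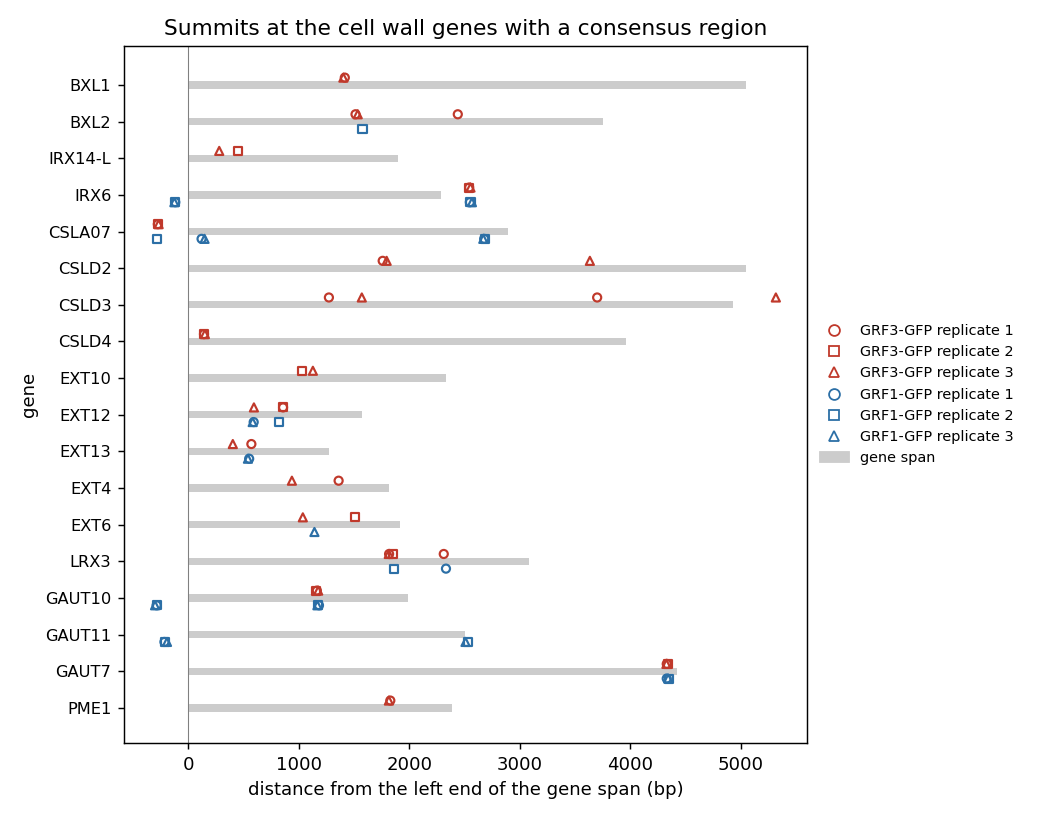
Summits of each library (symbols) along the 18 cell wall genes with a consensus region, as distance in bp from the left end of the gene span (grey bar), with GRF3-GFP above the bar and GRF1-GFP below it. At GAUT7, GAUT10 and the right side of IRX6 the symbols of all 6 libraries fall together, while GRF1-GFP alone has symbols to the left of GAUT10, GAUT11 and IRX6.

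Fold divided the GRF3-GFP regions into a high and a low set. CSLD4, GAUT7, IRX6, GAUT10 and CSLA07 had mean folds of 6.49 to 9.06 and were found in all 3 libraries. LRX3 followed at 4.42 and the other 11 lay between 1.93 and 3.59. The median over the 17 was 2.71, close to the 2.85 of all GRF3-GFP regions within 1 kb of a gene. GRF1-GFP regions at cell wall genes had a median of 4.35, beside 4.60 for all GRF1-GFP regions near genes. In 6 of the 7 GRF3-GFP regions found in all libraries the highest fold was that of replicate 3, and in 7 of the 9 such GRF1-GFP regions it was that of replicate 2, whose median fold over all peaks (4.52) was also above the 2.43 and 2.60 of replicates 1 and 3.

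A second list of other wall genes (68 found of 110 symbols, from cellulose synthase partners to wall-associated kinases and secondary wall regulators) was counted in the same way. GRF3-GFP regions lay at 4 of them (5.88%, beside 5.52% of all genes) and GRF1-GFP regions at 1 (1.47%, beside 3.11%). Summits were at 7.35%, 7.35% and 20.6% of them in the GRF3-GFP libraries, beside 7.38%, 5.67% and 14.5% of all genes. In the GRF1-GFP libraries they were at 1.47%, 7.35% and 1.47%, beside 3.13%, 4.61% and 4.03%, so the list was above all genes in 3 of the 6 libraries. The genes with a GRF3-GFP region were WAK3, a wall-associated kinase gene (folds 7.75, 7.98 and 11.0), MYB83, a master regulator of secondary wall formation (2.16, 2.92 and 3.83), and the proline-rich protein genes PRP2 and PRP4 in 2 libraries each. The gene with a GRF1-GFP region was MUR4, which makes the arabinose donor for wall polymers (5.85, 7.33 and 10.5). In all, 19 of the 68 genes (27.9%) had a summit in at least 1 library, beside 22.0% of all genes.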

How the data were processed

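Anti-GFP ChIP-seq peak lists of 3 GRF3-GFP and 3 GRF1-GFP libraries were used as deposited. Per the submitters' processing notes, the authors used FastQC, Trimmomatic, Bowtie2 and MACS2 with genome TAIR10; settings are not given there. TAIR10 is a Columbia genome, while the plants were Ws. Per peak, the deposited lists give position, summit, the authors' score (a rescaled, truncated −log10 q), a fold over the control (the authors' ratio), and the authors' −log10 p and −log10 q. Depth is unknown. Gene spans and names came from a RefSeq table of TAIR10.1, and printed coordinates are those of the files, counted from 1. No sequence was used here.

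Summits were assigned to every protein-coding gene within 1 kb. Consensus regions were runs of peaks overlapping by at least 1 bp from at least 2 libraries, with the median of the libraries' summits. Where a library had several peaks in a region, the highest fold was taken. Shares were compared over libraries by exact permutation tests (Python 3.11.15, pandas 2.3.3). Per the labels, lines were planted in complete blocks, but no label ties a replicate number to a block or says that replicates were processed separately, so p-values measure only the spread between these libraries. The assignment of summits to genes, without the 1 kb margin, and the joining of peaks to regions were tested on simulated peaks inside gene spans. The other steps were not tested in this way. Named genes were all members with a consensus region, and, of those with summits but no region, all for GRF1-GFP and the 8 with the highest −log10 q for GRF3-GFP; any others were named after seeing their values. Members, lists and tests were chosen with earlier results of these data known.

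Alternatives were stricter limits on −log10 q (5 or more) and on fold (4 or more), equal list lengths, other distances, any overlapping base, nearest gene only, matching on synonyms, regions in all 3 libraries, leaving out libraries in turn, and a replicate block. Leaving out the EXT and LRX genes or the inhibitor gene, and all alternatives for the ratio per base, were added after seeing the data.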

Additional observations from a re-analysis of the deposited data

How the results depend on the processing

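GRF3-GFP regions lay at 17 cell wall genes in the main count. The number was 7 with a −log10 q of at least 5, with equal list lengths and with regions in all 3 libraries, and those were the same 7 genes in each case. It was 5 with a fold of at least 4, 11 without the EXT and LRX genes (chosen after seeing the data), and 7 to 14 when a GRF3-GFP library was left out. GRF1-GFP regions lay at 8 genes; the number was 5 with a fold of at least 4 and 5 without the EXT and LRX genes, and 6 to 7 when a GRF1-GFP library was left out. Across the other alternatives both counts stayed within 1.5 times. The difference between factors in the share of cell wall genes (8.51 points) became -0.23 with lists of equal length, where 1122 peaks were kept of each. Over the single libraries left out it ran from 4.25, without GRF3-GFP replicate 3, to 11.1 points. Set against the share of all genes in the same library, the difference was 3.24 points, and 1.65 to 4.12 with a library left out. It kept its sign in all 18 alternatives but shrank to 0.0762 with lists of equal length, 0.504 under the fold limit of 4, 0.847 under the −log10 q limit of 5, and 1.10 without the EXT and LRX genes. The plain difference was 1.15, 2.07 and 6.37 points under the last 3 of these. The difference in the ratio per base (-0.57), whose alternatives were chosen after seeing the data, was -0.48 with lists of equal length, -0.64 without the EXT and LRX genes and -0.72 to -0.42 with a library left out. No p-value of these could fall below 0.1.

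The replicate block, a test over the sign flips of same-numbered libraries, gave the same differences of 8.51 and 3.24 points, with p = 0.25 for each, the smallest that 3 pairs allow (exact permutation test). The deviations of same-numbered libraries correlated across all genes at 0.00, -0.04 and -0.03 for numbers 1, 2 and 3. Those of libraries with different numbers correlated at -0.02 to 0.04. No pairing by number was seen, but with 3 libraries per factor such values cannot exclude shared planting blocks. Matching on synonyms added 22 genes and 1 GRF3-GFP region, at the pectin methylesterase gene AT2G45220.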

Other observations

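A list of 17 further genes with the word extensin among their synonyms, chosen after the values of the EXT and LRX genes were seen, had a summit in at least 1 library at 9 (52.9%, beside 22.0% of all genes). GRF3-GFP summits were at 3, 3 and 7 of them in replicates 1, 2 and 3 (17.6%, 17.6% and 41.2%, beside 7.38%, 5.67% and 14.5% of all genes). GRF1-GFP summits were at 2, 1 and 2 (11.8%, 5.88% and 11.8%, beside 3.13%, 4.61% and 4.03%). GRF3-GFP regions lay at 3 (17.6%, beside 5.52% of all genes), at PERK4, PERK7 and EPR1, and GRF1-GFP regions at 2 (11.8%, beside 3.11%), PERK4 and ELP. PERK4, a proline-rich receptor kinase gene, had GRF3-GFP folds of 9.79, 10.2 and 11.9 and GRF1-GFP folds of 3.33, 6.03 and 4.70 in replicates 1, 2 and 3, while EPR1, an extensin gene, had GRF3-GFP folds of 2.25, 1.98 and 2.40 and no GRF1-GFP peak.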
